A study of Homo sapiens with 4 samples.

Results

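The genes of cholesterol and fatty acid synthesis were compared between cells given a control siRNA and cells given an siRNA against TMEM161A, in 2 human colorectal cancer cell lines. The set held 36 genes: the regulators of the SREBP transcription factors, the enzymes of the mevalonate and sterol pathway, genes of sterol transport, uptake and export, and the enzymes of fatty acid synthesis. They were chosen by symbol, matched to Ensembl gene identifiers, from the 60658 identifiers listed for every library. Of the 36 genes, 34 had a mean FPKM of at least 1 over the 4 libraries, as did 14803 genes in all. FPKM is the number of fragments of a gene corrected for the length of its transcript and the depth of the library. ABCA1 and ABCG1 did not reach this level.

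The study concerned TMEM161A in colorectal cancer, and its RNA sequencing covered HT29 and LIM1215 cells. Each line had 1 library from cells given a negative control siRNA (the group HT29_NC or LIM1215_NC) and 1 from cells given a TMEM161A siRNA (HT29_si2 or LIM1215_si2), 4 libraries in all. Both lines are established from human colorectal carcinomas, and the libraries were made from poly(A) RNA with a strand-marking kit. No group had a replicate, so no difference carries a p-value or an error between cultures, and the only error given is a 95% exact Clopper-Pearson counting interval from estimated fragments. Those intervals cover counting error only. Both libraries from TMEM161A siRNA carry the label si2, and no library had another TMEM161A siRNA. For SQLE and every other gene, an effect through TMEM161A and an effect of that siRNA on other transcripts cannot be told apart. The dose of siRNA, the time of harvest and the siRNA sequences were not given in the sources used here.

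Cells make cholesterol from acetyl-CoA through mevalonate, farnesyl diphosphate, squalene and lanosterol, and make fatty acids from the same precursor. When sterols in the endoplasmic reticulum run low, SCAP carries the SREBP proteins to the Golgi, where proteases release their transcription factor part, and INSIG proteins hold SCAP back when sterols are plentiful. SREBP-2, the product of SREBF2, acts mainly on the sterol enzymes, and SREBP-1, the product of SREBF1, mainly on the fatty acid enzymes, often together with the factor NF-Y, so that the genes of these pathways usually move together.

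The targeted transcript was lower in both libraries from cells given its siRNA. TMEM161A stood at 42.6 FPKM in HT29_NC, 4.64 in HT29_si2, 39.1 in LIM1215_NC and 7.61 in LIM1215_si2, which was 10.9% of control in HT29 and 19.4% in LIM1215. The depth at 1 FPKM was estimated at 18.1 to 21.6 fragments for each kilobase, and 23397 to 23935 genes were above 0 in each. The epithelial markers EPCAM, KRT8, KRT18, CDH1 and CDX2 were present in all libraries. KRT20, CDX1 and VIL1, markers of differentiated colon epithelium, were under 1 FPKM in both HT29 libraries and between 67.8 and 261 FPKM in the LIM1215 libraries. Of 7 markers of lymphoid cells, fibroblasts and endothelium, 6 were below 1 FPKM in every library, and PTPRC and CD3E were at 0 in all. The exception was COL1A1, at 17.6 FPKM in HT29_NC, 16.0 in HT29_si2, 4.83 in LIM1215_NC and 8.56 in LIM1215_si2. Whether the cells labelled HT29 were that line was not tested, so each value given for HT29, and each difference between the lines, is that of the libraries so labelled.

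SQLE (ENSG00000104549; GRCh38 chr8:124998497-125022283, plus strand, in GENCODE release 44) was the gene of the set with the lowest level relative to control in both lines. It encodes squalene epoxidase, which adds oxygen to squalene and is a rate-limiting enzyme of sterol synthesis. SQLE stood at 27.3 FPKM in HT29_NC, 3.95 in HT29_si2, 56.6 in LIM1215_NC and 7.70 in LIM1215_si2. The library from TMEM161A siRNA was the lower one in each line, and the LIM1215 control held the most. The estimated fragments behind these levels numbered 1603 and 235 in HT29, and 2832 and 431 in LIM1215. SQLE in HT29_si2 was 14.5% of its control, with a counting interval of 12.5% to 16.6%, and in LIM1215_si2 it was 13.6% of its control, with an interval of 12.3% to 15.1%. Whether fewer cells carried the transcript or each cell held less of it cannot be told apart in bulk RNA. On the scale used for all comparisons, a log2 ratio of values with a pseudocount of 1 added to each FPKM, the difference was −2.52 in HT29 and −2.73 in LIM1215. Over all 14803 genes compared, 48 in HT29 (0.324%) and 44 in LIM1215 (0.297%), SQLE included, were as low or lower.

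**Figure D1:**
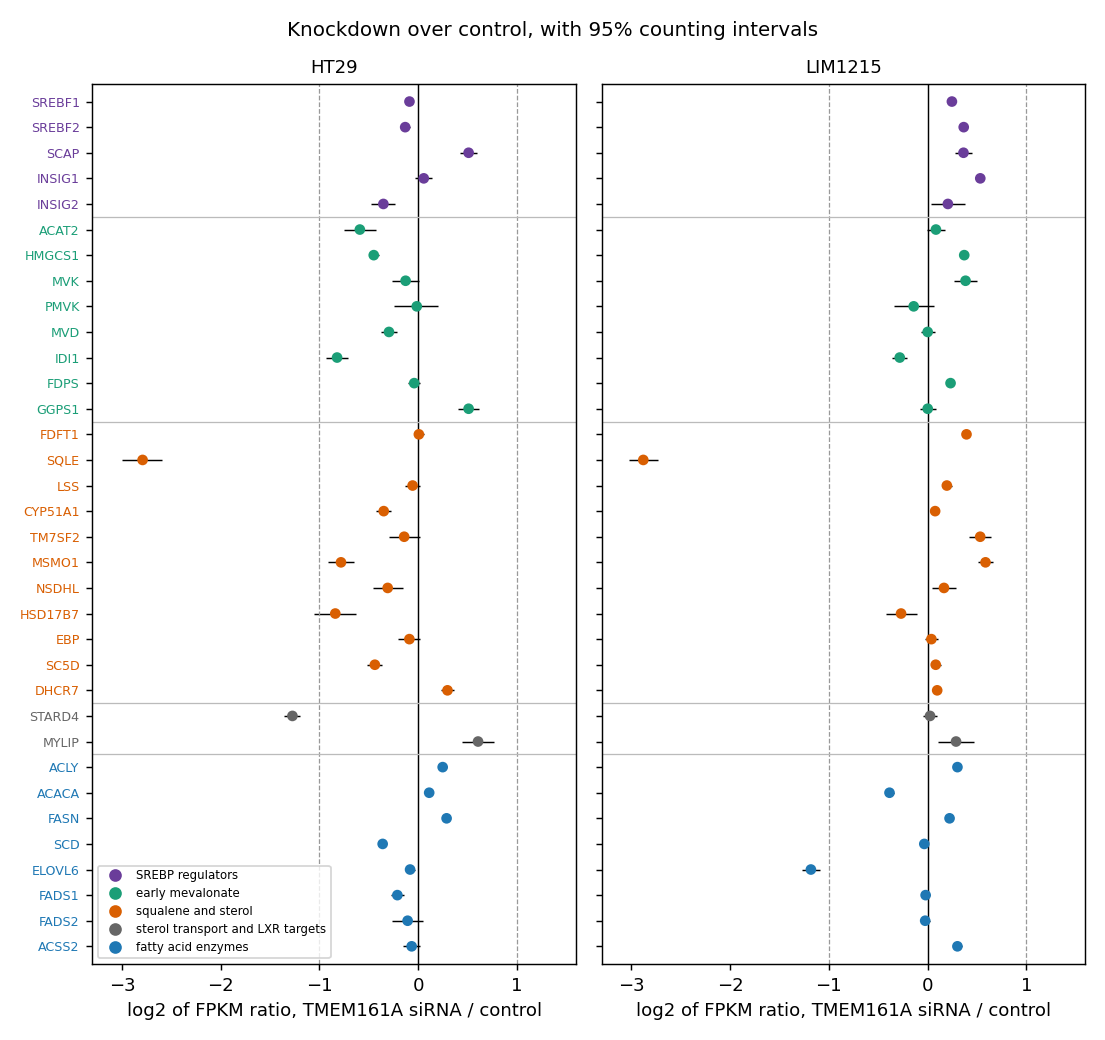
Log2 of the FPKM ratio of TMEM161A siRNA over control siRNA, without a pseudocount, for the 34 genes that reached a mean FPKM of 1, in HT29 (left) and LIM1215 (right). Points are single comparisons of 1 library with 1 library, bars are 95% counting intervals, colours mark the role of the gene and dashed lines mark 2-fold. SQLE lies far to the left in both lines, at 14.5% and 13.6% of control, STARD4 is past 2-fold in HT29 and ELOVL6 in LIM1215.

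The rest of the sterol pathway did not share that difference. Over the other 18 sterol enzymes the log2 ratio had a median of −0.21 in HT29 and 0.09 in LIM1215, where the median over all genes compared was 0.04 and 0.02. The log2 ratio of SQLE minus the median of its pathway was −2.30 in HT29 and −2.82 in LIM1215. The lowest of the other 18 was IDI1 in both lines, at −0.79 in HT29 and −0.28 in LIM1215. The log2 ratio of SQLE minus that of IDI1 was −1.73 in HT29 and −2.45 in LIM1215, a gap wider than the whole range of the other 18 enzymes, which reached up to 0.49 for GGPS1 in HT29 and 0.58 for MSMO1 in LIM1215.

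The enzymes on either side of SQLE show the same contrast within each library, where levels per length can be set beside each other. FDFT1, squalene synthase, makes the substrate of SQLE, LSS, lanosterol synthase, closes its product to the first sterol, and CYP51A1 removes a methyl group from lanosterol. SQLE amounted to 97.4% of the LSS level in FPKM in HT29_NC, 14.6% in HT29_si2, 80.0% in LIM1215_NC and 9.49% in LIM1215_si2. Against FDFT1 it was 18.7%, 2.69%, 14.8% and 1.53% in the same order of libraries. Against CYP51A1 it was 57.0%, 10.5%, 35.9% and 4.62%. Ranked by FPKM among the 19 sterol enzymes, SQLE was number 12 from the top in both control libraries and number 19, the lowest, in both libraries from TMEM161A siRNA.

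**Figure D2:**
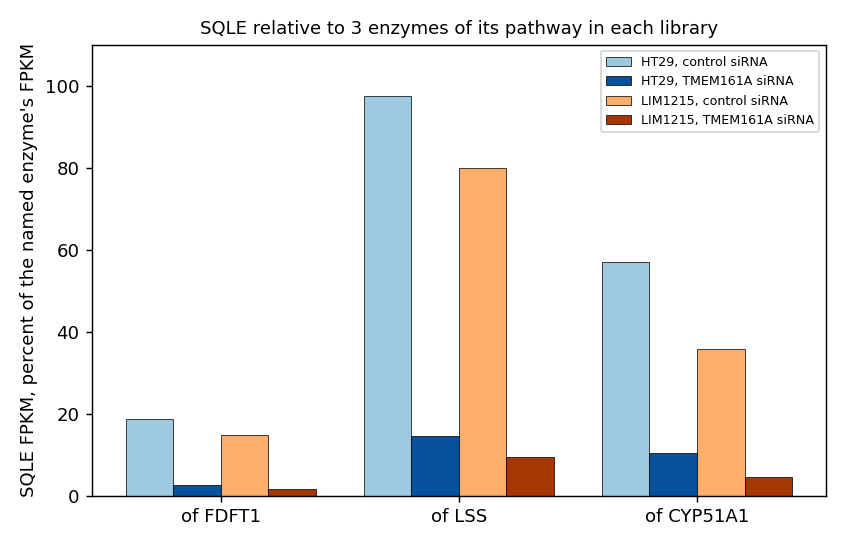
SQLE FPKM as a percent of the FPKM of FDFT1, LSS and CYP51A1 in each of the 4 libraries, with bars starting at 0 and 1 library per bar. In both lines the darker bars, from TMEM161A siRNA, are lower, as in the ratio to LSS with 97.4% and 14.6% in HT29 and 80.0% and 9.49% in LIM1215.

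The genes around SQLE on the chromosome did not share its difference. Of the genes compared, 11 lay within 1 Mb of SQLE, with a median log2 ratio of 0.13 in HT29 (range −0.58 to 0.61, 4 below 0) and 0.07 in LIM1215 (range −0.29 to 0.49, 5 below 0). SQLE overlaps no other gene in the annotation.

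The 34 genes seldom passed a fold on this scale, whose pseudocount shrinks ratios, most of all at low FPKM. Lower by 2-fold or more in HT29 were 2 of the 34, SQLE and STARD4, where 1.95% of all genes were; none was higher by 2-fold, where 1.85% of all genes were. In LIM1215, 2 of the 34 were lower by 2-fold, SQLE and ELOVL6, against 1.78% of all genes, and none was higher, against 1.68%. At 1.5-fold, 5 of the 34 were lower in HT29, IDI1, MSMO1 and HSD17B7 besides SQLE and STARD4, against 6.91% of all genes, and none was higher, against 7.87%. In LIM1215 SQLE and ELOVL6 were again the only 2 of the 34 lower by 1.5-fold, against 6.18% of all genes, and none was higher, against 6.63%. By the FPKM ratio without a pseudocount, ACAT2, at 66.5% of control, and MYLIP, at 152%, were past 1.5-fold in HT29 too, and MSMO1, at 150.2%, was in LIM1215. Counts this small are not read as a result about the set as a whole.

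**Figure D3:**
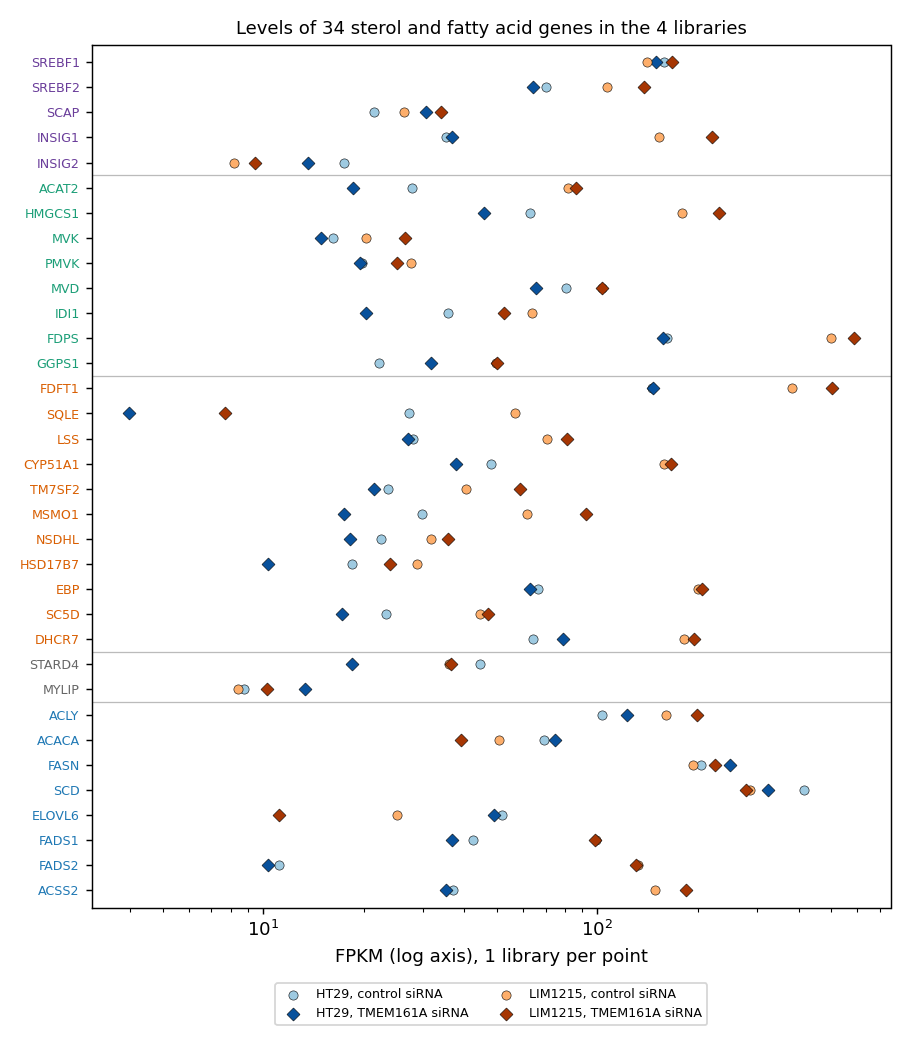
FPKM of the 34 genes in the 4 libraries on a log axis, 1 point per library, with circles for control siRNA and diamonds for TMEM161A siRNA, blue for HT29 and orange for LIM1215. Most sterol genes lie further right in LIM1215 than in HT29 in both treatments, and the SQLE diamonds, at 3.95 and 7.70 FPKM, lie far left of its circles.

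The SREBP regulators differed between libraries by less than 1.5-fold in each line. SREBF2, the main regulator of the sterol enzymes (ENSG00000198911; GRCh38 chr22:41833105-41907306, plus strand), stood at 70.0 FPKM in HT29_NC, 64.0 in HT29_si2, 107 in LIM1215_NC and 138 in LIM1215_si2, on 6945 to 14055 estimated fragments. Relative to control it was at 91.4% in HT29, with a counting interval of 88.4% to 94.4%, and at 129% in LIM1215 (126% to 132%), so the library from TMEM161A siRNA was the lower one in HT29 and the higher one in LIM1215. SREBF1 stood at 159, 149, 141 and 167 FPKM in the same order, on 12003 to 15938 fragments, and was 94.2% of control in HT29 (92.1% to 96.3%) and 119% in LIM1215 (116% to 121%). It showed the same 2 directions as SREBF2. SREBF1 overlaps RAI1 on the opposite strand, at up to 16.5 FPKM, and the strand setting of the counting was not given in the sources used here.

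SCAP, the escort of the SREBP proteins, was the regulator that was higher in both lines. It stood at 21.5 FPKM in HT29_NC, 30.6 in HT29_si2, 26.4 in LIM1215_NC and 34.02 in LIM1215_si2, on 1846 to 2795 fragments. That was 143% of control in HT29 (134% to 151%) and 129% in LIM1215 (121% to 136%). INSIG1, which retains SCAP in the endoplasmic reticulum and is itself an SREBP target, stood at 35.2, 36.6, 153 and 221 FPKM, on 2022 to 12119 fragments. It was 104% of control in HT29, an interval of 97.9% to 111% that includes no difference, and 145% in LIM1215 (141% to 149%). Its log2 ratio in HT29, 0.06, was below 0 after rescaling to a common sum or over protein-coding genes. INSIG2, which acts as INSIG1 does, stood at 17.4, 13.6, 8.18 and 9.43 FPKM, on 498 to 1241 fragments, and was 78.4% of control in HT29 (72.1% to 85.3%) and 115% in LIM1215 (102% to 129.9%). The median log2 ratio of the 5 regulators was −0.09 in HT29, with 3 below 0 (44.4% of all genes), and 0.35 in LIM1215, with all 5 above 0 under every scaling run (53.1% of all genes).

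The 250 bases before and 50 bases after the RefSeq start of SREBF2 are shown because they held the letters TCACNCCAC. These letters are the core of a sterol regulatory element. Of the genes searched, SREBF2 was the only one whose window held them on either strand (GTGGNGTGA in reverse). RefSeq promoters on GRCh38.p14 were given for 31 of the 36 genes, and not for ACAT2, FDFT1, SQLE, ABCG1 and FASN. Counted by gene, over every promoter window given for it, the letters were in 1 of these 31 genes. They were in 379 of 27305 genes in all (1.39%). The SREBF2 window is chr22:41832855-41833154, plus strand, read 5′ to 3′ along the gene, and capitals mark the match, TCACCCCAC, whose first base is at −133 from the start.
SREBF2: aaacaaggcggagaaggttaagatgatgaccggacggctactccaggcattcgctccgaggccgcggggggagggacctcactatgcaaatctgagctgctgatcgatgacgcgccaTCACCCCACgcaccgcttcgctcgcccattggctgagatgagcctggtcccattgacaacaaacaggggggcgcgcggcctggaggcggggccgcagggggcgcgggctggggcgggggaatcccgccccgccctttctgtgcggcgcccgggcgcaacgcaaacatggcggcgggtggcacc
For the other 30 genes these letters were not in the 300 bases of any window searched. The search took these exact letters only, so a window without them may still hold a variant of the element. A match is a description of the sequence and no evidence of binding.

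The early mevalonate enzymes, from acetyl-CoA to the prenyl diphosphates, had log2 ratios below 0 in HT29 for 7 of 8 genes, against 44.4% of all genes, and above 0 in LIM1215 for 6 of 8, against 53.1% of all genes, of which MVD and GGPS1 were below 0 under each of the 4 other scalings. Their log2 ratios had a median of −0.20 in HT29 and 0.04 in LIM1215. Several lay near 0, as PMVK at −0.01 and FDPS at −0.04 in HT29, where the counting intervals included no difference. HMGCS1, which makes HMG-CoA, stood at 62.7 FPKM in HT29_NC, 45.9 in HT29_si2, 179 in LIM1215_NC and 232 in LIM1215_si2, on 5096 to 24166 fragments. The library from TMEM161A siRNA was the lower one in HT29, at 73.3% of control (70.6% to 76.0%), and the higher one in LIM1215, at 129% (127% to 132%). ACAT2, the cytosolic thiolase that joins acetyl-CoA units, stood at 27.9, 18.5, 81.6 and 86.5 FPKM, on 527 to 2312 fragments, which was 66.5% of control in HT29 (59.4% to 74.3%) and 106% in LIM1215 (99.8% to 113%). ACAT2 overlaps TCP1 on the opposite strand, a gene with up to 360.5 FPKM, so its values are uncertain.

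IDI1, which isomerises isopentenyl diphosphate, was lower in both lines. It stood at 35.8 FPKM in HT29_NC, 20.3 in HT29_si2, 63.9 in LIM1215_NC and 52.6 in LIM1215_si2, on 1108 to 2938 fragments. That was 56.6% of control in HT29 (52.5% to 61.0%) and 82.3% in LIM1215 (78.05% to 86.7%). GGPS1, which makes the geranylgeranyl diphosphate used for protein prenylation, was the only early mevalonate gene higher in HT29, with 22.2 FPKM in HT29_NC and 31.7 in HT29_si2, while both LIM1215 libraries had 49.9. FDPS, farnesyl diphosphate synthase and the most abundant of the sterol enzymes in every library, stood at 162, 157, 499 and 587 FPKM, with log2 ratios of −0.04 and 0.23. The kinases MVK and PMVK and the decarboxylase MVD had log2 ratios of −0.12, −0.01 and −0.29 in HT29. In LIM1215 MVK was at 0.37, PMVK at −0.14, and MVD at 103 FPKM in both libraries. MVK overlaps MMAB, FDPS overlaps RUSC1-AS1, and GGPS1 overlaps ARID4B, on the opposite strand.

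Among the enzymes from squalene to cholesterol, 9 of 11 were below 0 in HT29 (44.4% of all genes), 10 of 11 under the 4 other scalings, and 9 of 11 were above 0 in LIM1215 (53.1% of all genes), with medians of −0.29 and 0.10. FDFT1 stood at 146 FPKM in HT29_NC, 147 in HT29_si2, 383 in LIM1215_NC and 504 in LIM1215_si2, on 5681 to 18710 fragments. It was 101% of control in HT29 (96.9% to 104%), where its direction changed with the scaling, and 131% in LIM1215 (129% to 134%). LSS stood at 28.1, 27.0, 70.8 and 81.1 FPKM, on 2729 to 7703 fragments, and was 96.3% of control in HT29 (91.2% to 101%) and 115% in LIM1215 (111% to 118%). The enzymes directly before and after SQLE were thus near control in HT29 and above it in LIM1215.

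MSMO1, the oxidase that removes methyl groups from the sterol ring (ENSG00000052802; GRCh38 chr4:165327667-165343164, plus strand), had the widest difference between the lines. It stood at 29.9 FPKM in HT29_NC, 17.4 in HT29_si2, 61.5 in LIM1215_NC and 92.4 in LIM1215_si2, on 760 to 3792 fragments. It was 58.2% of control in HT29 (53.2% to 63.7%) and 150.2% in LIM1215 (143% to 158%). HSD17B7, a reductase of the same demethylation steps, was lower in both lines, with 18.5, 10.3, 28.8 and 23.9 FPKM on 295 to 691 fragments, 55.9% of control in HT29 (48.3% to 64.6%) and 83.0% in LIM1215 (74.4% to 92.6%). Fragments of HSD17B7 may be shared with its copy HSD17B7P2, which was listed at 2.90 to 4.44 FPKM.

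The other 6 genes of this stretch stayed within 1.5-fold of control in both lines. CYP51A1, the sterol dehydrogenase NSDHL and the sterol desaturase SC5D had log2 ratios of −0.34, −0.29 and −0.42 in HT29 and 0.08, 0.16 and 0.08 in LIM1215. TM7SF2, a sterol reductase, was at −0.13 and 0.52, and EBP, a sterol isomerase, at −0.09 and 0.04. DHCR7, the reductase that makes cholesterol from its last precursor on a branch of the pathway, was above 0 in both lines, at 0.29 and 0.10, and besides FDFT1 was the only gene of this group above 0 in HT29. CYP51A1 overlaps AKAP9 on the opposite strand, and TM7SF2 touches VPS51, which had up to 142 FPKM. DHCR7 overlaps a noncoding RNA gene on the opposite strand, with up to 23.1 FPKM.

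Of the 4 genes of the set for sterol transport and the liver X receptors, 2 reached a mean FPKM of 1, STARD4 and MYLIP. Only STARD4 of these was past 2-fold, in HT29. STARD4 carries cholesterol between membranes (ENSG00000164211; GRCh38 chr5:111496033-111512590, minus strand). It stood at 44.6 FPKM in HT29_NC, 18.5 in HT29_si2, 35.9 in LIM1215_NC and 36.6 in LIM1215_si2, on 1762 to 4195 fragments. HT29_si2 was the low library and the other 3 lay between 35.9 and 44.6 FPKM. STARD4 was 41.4% of control in HT29 (39.1% to 43.8%), where 170 genes (1.15% of those compared) were as low or lower, and 102% in LIM1215 (96.8% to 107%). Its log2 ratio of 0.02 in LIM1215 was marginally below 0 under upper quartile scaling and after rescaling over protein-coding genes.

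MYLIP, a ubiquitin ligase induced by liver X receptors that marks lipoprotein receptors for breakdown, was above control in both lines. It stood at 8.74, 13.3, 8.42 and 10.3 FPKM, on 438 to 824 fragments, which was 152% of control in HT29 (136% to 170.2%) and 122% in LIM1215 (108% to 139%). The cholesterol exporter ABCA1 was barely detected, at 0.310, 0.221, 0.268 and 0.312 FPKM on 48.5 to 67.1 fragments. Its ratio, 71.2% of control in HT29 (48.8% to 106%) and 117% in LIM1215 (80.5% to 175%), did not differ from control beyond counting error at this depth. ABCG1, another exporter, was listed at 0 in HT29_NC and LIM1215_si2, at 0.236 FPKM in HT29_si2 and at 0.0931 in LIM1215_NC, and no ratio is given for it.

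The fatty acid enzymes stayed within 1.5-fold of control in both lines, with 1 exception. In both lines 5 of the 8 were below 0 and 3 above, under every scaling run, where 44.4% of all genes were below 0 in HT29 and 53.1% above 0 in LIM1215, with medians of −0.07 in HT29 and −0.02 in LIM1215. FASN, the synthase itself, stood at 205 FPKM in HT29_NC, 249.97 in HT29_si2, 193 in LIM1215_NC and 225 in LIM1215_si2, on 28873 to 44521 fragments, and was 122% of control in HT29 (121% to 124%) and 117% in LIM1215 (115% to 119%). ACLY, which supplies its acetyl-CoA, was likewise above control in both lines, at log2 ratios of 0.25 and 0.30. ACLY overlaps a noncoding RNA gene over 156 bases on the opposite strand, with up to 170.5 FPKM. SCD, which puts the double bond into stearate, stood at 414, 323, 285 and 279 FPKM, on 26077 to 44389 fragments, and was 78.01% of control in HT29 (76.9% to 79.1%) and 97.7% in LIM1215 (96.1% to 99.4%).

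ELOVL6, the elongase that turns palmitate into stearate (ENSG00000170522; GRCh38 chr4:110045846-110199199, minus strand), was the exception. It stood at 51.9 FPKM in HT29_NC, 49.1 in HT29_si2, 25.2 in LIM1215_NC and 11.1 in LIM1215_si2, on 1435 to 7026 fragments. LIM1215_si2 was the low library, and both HT29 libraries were higher than both LIM1215 libraries. ELOVL6 was 44.1% of control in LIM1215 (41.4% to 47.0%), where 199 genes (1.34% of those compared) were as low or lower, and 94.6% in HT29 (91.4% to 97.8%). ACACA, acetyl-CoA carboxylase, which provides malonyl-CoA, was the only one of the 34 genes above 0 in HT29 and below 0 in LIM1215, at log2 ratios of 0.11 and −0.38; under the 4 other scalings GGPS1 was so too. The desaturases FADS1 and FADS2 had log2 ratios of −0.20 and −0.10 in HT29 and −0.02 and −0.02 in LIM1215. These neighbours overlap on opposite strands, so their values are not independent. FADS2 also overlaps FEN1 on the same strand, a gene with up to 65.1 FPKM. ACSS2, which makes acetyl-CoA from acetate, was at −0.06 and 0.30.

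The set leaned in different directions in the lines. In HT29, 25 of the 34 genes were below 0, against 44.4% of all genes, and in LIM1215 25 of the 34 were above 0, against 53.1% of all genes. Below 0 in HT29 and above 0 in LIM1215 were 17 of the 34, against 16.1% of all genes. The other scalings moved these counts to 26 to 27 in HT29, 22 to 23 in LIM1215 and 16 to 18 for both. Every share of all genes below or above 0, here and for the groups of genes, is that of the main scaling only. Those shares move with the scaling too. Over all genes in HT29 the median log2 ratio was 0.04, and −0.04 after rescaling over protein-coding genes. The median log2 ratio of the 34 was −0.11 in HT29 and 0.13 in LIM1215. Among the 18 sterol enzymes other than SQLE, 15 were below 0 in HT29 and 15 above 0 in LIM1215, and under the 4 other scalings the counts were 16 and 13, since FDFT1, MVD and GGPS1 changed sign. Many of these ratios were small, and the difference between the lines has no replicate behind it.

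**Figure D4:**
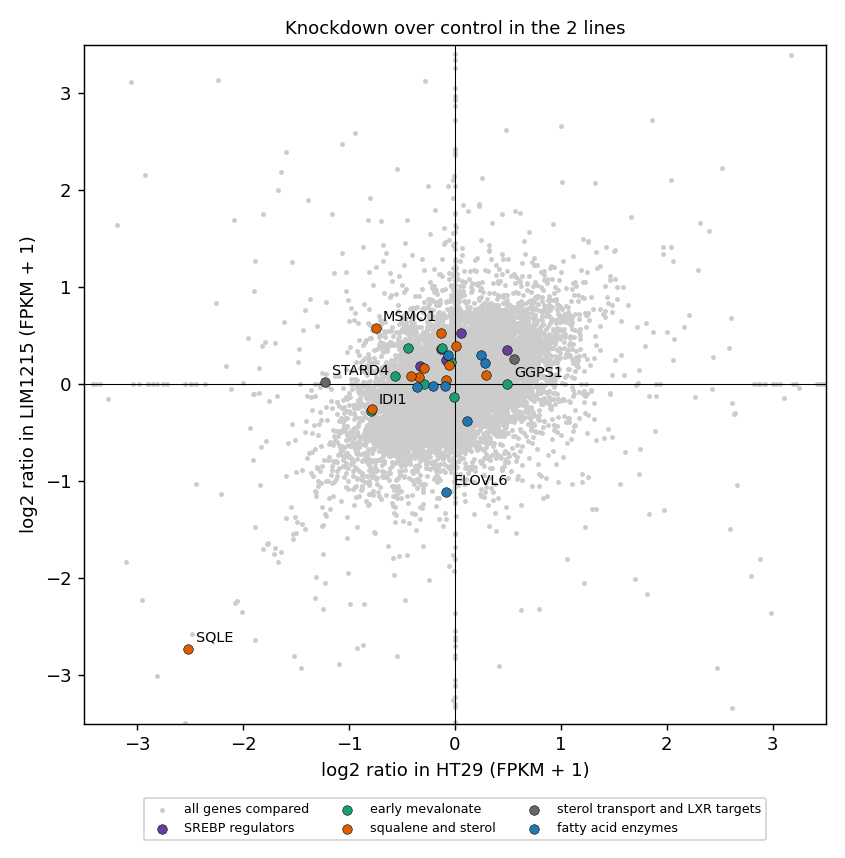
Log2 ratio of FPKM plus 1, TMEM161A siRNA over control siRNA, in HT29 (horizontal) and LIM1215 (vertical), for all 14803 genes compared (grey) and the 34 genes of the set (coloured by role). The axes end at 3.5 in either direction, which leaves out 72 grey genes; SQLE lies low in both lines at −2.52 and −2.73, MSMO1 and STARD4 are low in HT29 alone, ELOVL6 is low in LIM1215 alone, and STARD4, FDFT1, INSIG1, MVD and GGPS1 lie so near a zero line that 1 or more scalings moved them across it.

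The log2 ratios differed between the lines by 1 or more for 3 of the 34 genes, against 5.13% of all genes: MSMO1, 1.33 higher in LIM1215, STARD4, 1.25 higher in LIM1215, and ELOVL6, with a difference of −1.03. A count of 3 is not read as a result about the set. The RefSeq promoter windows of these 3 genes are shown because they passed this difference. The letters of the NF-Y box, CCAAT or its reverse ATTGG, are in capitals. Each window is 300 bases on GRCh38.p14, read 5′ to 3′ along the gene: chr4:165327419-165327718 on the plus strand for MSMO1, chr5:111512486-111512785 on the minus strand for STARD4 and chr4:110198566-110198865 on the minus strand for ELOVL6.
MSMO1: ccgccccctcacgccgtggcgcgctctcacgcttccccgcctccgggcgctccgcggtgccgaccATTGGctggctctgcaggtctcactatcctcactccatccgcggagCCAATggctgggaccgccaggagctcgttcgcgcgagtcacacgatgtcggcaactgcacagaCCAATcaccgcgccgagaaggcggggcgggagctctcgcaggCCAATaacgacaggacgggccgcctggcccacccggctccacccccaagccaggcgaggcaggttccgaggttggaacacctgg
STARD4: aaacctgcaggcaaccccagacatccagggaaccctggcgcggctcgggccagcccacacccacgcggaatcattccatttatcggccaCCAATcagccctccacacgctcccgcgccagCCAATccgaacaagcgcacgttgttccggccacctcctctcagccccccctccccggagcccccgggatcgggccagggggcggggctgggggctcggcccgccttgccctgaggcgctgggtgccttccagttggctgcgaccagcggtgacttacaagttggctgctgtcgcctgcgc
ELOVL6: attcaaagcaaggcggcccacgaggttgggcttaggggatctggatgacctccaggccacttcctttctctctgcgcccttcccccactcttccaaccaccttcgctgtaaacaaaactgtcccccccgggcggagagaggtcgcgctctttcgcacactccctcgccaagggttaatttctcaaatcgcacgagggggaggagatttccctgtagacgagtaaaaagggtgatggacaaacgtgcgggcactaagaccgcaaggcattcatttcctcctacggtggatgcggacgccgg
MSMO1 had 4 matches, the first in reverse with its first base at −185 from the start and the others at −139, −76 and −34. STARD4 had 2, at −161 and −130, and ELOVL6 had none in this window. The letters were in at least 1 window of 23 of the 31 genes of the set with a RefSeq promoter (74.2%) and of 10846 of 27305 genes in all (39.7%). The 8 without them were SREBF1, SCAP, INSIG2, PMVK, CYP51A1, ABCA1, ELOVL6 and FADS1. ACAT2, FDFT1, SQLE, ABCG1 and FASN had no window to search. A match of 5 letters is a description of the sequence and no evidence of binding.

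The lines differed in the set under the control siRNA. Between the control libraries, 15 of the 34 genes were higher in LIM1215_NC by 2-fold or more, against 12.0% of all genes, and 2 were lower, INSIG2 and ELOVL6, against 7.42%. All 18 sterol enzymes other than SQLE were higher in LIM1215_NC under every scaling run, 10 of them past 2-fold, and their median log2 ratio was 1.07, against 0.05 for all genes. Rescaling to a common sum shifted the median of all genes from 0.05 to −0.11 and that of the 18 enzymes to 0.90. CYP51A1 was 3.29 times as high in LIM1215_NC (counting interval 3.15 to 3.43), FDPS 3.09 times (2.98 to 3.20) and SQLE 2.07 times (1.95 to 2.203). INSIG1, the SREBP target, was 4.34 times as high (4.13 to 4.56).

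The fatty acid enzymes were split between the controls. FADS2, the desaturase that starts the synthesis of polyunsaturated fatty acids, had 11.1 FPKM in HT29_NC and 133 in LIM1215_NC. The ratio of 11.9 (10.99 to 12.9) was the widest of the set. FADS2 overlaps FEN1 on the same strand, a gene with up to 65.1 FPKM, so this ratio is uncertain beyond its counting interval. ACSS2 was 4.04 times as high in LIM1215_NC (3.85 to 4.25) and FADS1 2.34 times (2.25 to 2.43). ELOVL6 was lower there, at 0.485 of the HT29 level (0.464 to 0.507), SCD at 0.689 (0.678 to 0.699) and FASN at 0.943 (0.928 to 0.958). General epithelial markers were also higher in LIM1215_NC, as EPCAM with 503 FPKM against 168 in HT29_NC and KRT8 with 3719 against 1467, and their part in the difference was not tested. With 1 library per line, the line and the library cannot be told apart, and the control libraries are the same ones that enter the siRNA comparisons.

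**Figure D5:**
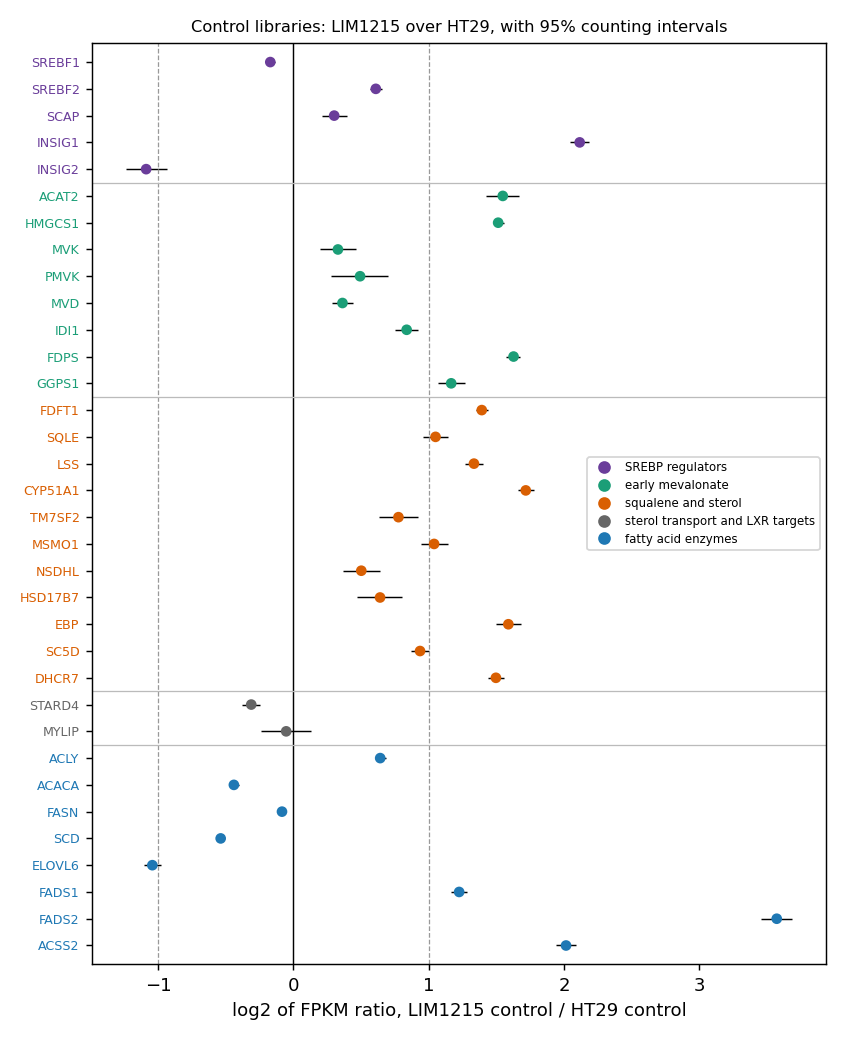
Log2 of the FPKM ratio of LIM1215_NC over HT29_NC, without a pseudocount, for the 34 genes, with 95% counting intervals as bars, colours for the role of the gene and dashed lines at 2-fold. All sterol enzymes lie right of 0, FADS2 lies furthest right with a ratio of 11.9, and INSIG2 and ELOVL6 lie left of the 2-fold line.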

How the data were processed

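The authors deposited 1 table per library with the FPKM of each Ensembl gene identifier. HISAT2 2.1.0, SAMtools 1.20, Cufflinks 2.2.1, Cuffdiff and the build GRCh38 are named in the submitters' processing notes; the annotation and the strand setting were not given in the sources used here. A few abundant genes can shift the deposited FPKM of all others, since each value is a share of its library. Groups followed the sample titles, with 1 library each.

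Symbols, positions and lengths were those of GENCODE release 44 (GRCh38), which held 56550 of the 60658 identifiers. Log2 ratios, with a pseudocount of 1 added to each FPKM, were computed for the 14803 genes with a mean FPKM of at least 1, and a gene was called past 2-fold (or 1.5-fold) without a test. Depth was estimated from the steps of low FPKM values, in genes of at least 500 bases with 1 annotated transcript. The depth and a length offset of 202 to 203 bases were chosen by the share of values they put near whole fragments. With that choice, 78.0% to 80.1% of low values lay within 0.03 of a whole fragment, so this share is no separate check of the depth. Fragments per gene are therefore estimates through the length of the canonical transcript. Scripts ran in Python 3.11.15 with pandas 2.3.3 and scipy 1.17.1. Only the log2 ratio formula was tried on simulated counts. The depth estimate, the counting intervals, the scalings and the search of promoter letters were not.

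The genes and lists were chosen with earlier results of these data known. Values are given in full for the SREBP regulators, SQLE, HMGCS1, FDFT1, LSS, FASN, SCD, ABCA1 and each gene whose FPKM ratio passed 1.5-fold in a line. Alternatives were other pseudocounts, filters, scalings and a 1.5-fold threshold.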

Additional observations from a re-analysis of the deposited data

Results flagged for a closer look

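Of the 34 genes, 18 had log2 ratios (TMEM161A siRNA over control) of opposite sign in the lines, 17 of them below 0 in HT29 and above 0 in LIM1215. None of these differences could be tested, since each line had 1 library per group. For 9 genes the counting intervals, taken under the main scaling only, excluded no difference in both lines. Among these 9 the ratio in LIM1215 minus that in HT29 was 1.33 for MSMO1, 0.81 for HMGCS1, 0.51 for INSIG2, 0.50 for SC5D, 0.49 for SREBF2, 0.45 for NSDHL, 0.42 for CYP51A1 and 0.33 for SREBF1. The remaining gene of the 9, ACACA, was the reverse case, at −0.49. Its log2 ratio in HT29 was 0.11, but 0.03 after rescaling to a common sum and 0.008 after rescaling over protein-coding genes.

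For the other 9 genes the counting interval included no difference in at least 1 line. Here the difference was 1.25 for STARD4, which was low in HT29 and at control level in LIM1215. It was 0.66 for TM7SF2, 0.65 for ACAT2, 0.49 for MVK and 0.36 for ACSS2. For MVD it was 0.29, for FDPS 0.27, for LSS 0.25 and for EBP 0.12. The medians of the 18 sterol enzymes other than SQLE, −0.21 in HT29 and 0.09 in LIM1215, differed by 0.30, also not tested. STARD4 and MVD were no longer of opposite sign under some of the other scalings.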

How the results depend on the processing

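Of 83 alternative values of the main results under other pseudocounts, scalings and thresholds, 70 stayed within counting error or within 1.5 times of a count, and none changed direction. With a pseudocount of 0.1 the log2 ratio of SQLE was −2.76 in HT29 and −2.86 in LIM1215, and its difference from the median of the other sterol enzymes −2.54 and −2.95. With a pseudocount of 5 these were −1.85, −2.28, −1.67 and −2.37, and 1 gene instead of 2 was lower by 2-fold in LIM1215, since ELOVL6 was at −0.91. Rescaling to a common sum put the fatty acid median in HT29 at −0.15. Rescaling over protein-coding genes put it at −0.17 and the sterol median in HT29 at −0.31. At 1.5-fold, 5 genes were lower in HT29. The count of genes past 2-fold between the controls was 17 and ranged from 13 to 17 over the other pseudocounts, filters and scalings. Of 396 values of single genes, 52 moved beyond counting error and 16 changed sign, all with a main size of at most 0.056. The filter cannot move the ratio of a gene: a mean FPKM of at least 5 kept the same 34 genes, and no filter added ABCA1 and ABCG1. At the levels of these genes the pseudocount of 1 keeps either from passing 2-fold, whatever the FPKM ratio. A fit of the siRNA over both lines with the line as a block would leave 1 residual degree of freedom and was not run. Depth limited ABCA1 and ABCG1. Without replicates, the spread between cultures is unknown, and no left-out replicate could be tried.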

Other observations

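A list of 56 neighbouring pathway genes outside the set was also described. All 56 passed the filter. On the log2 scale with a pseudocount of 1, 3 of them were lower by 2-fold in HT29, against 1.95% of all genes, and none higher, against 1.85%. In LIM1215 none was lower, against 1.78% of all genes, or higher, against 1.68%, although NUS1 and ACACB were past 2-fold there by the FPKM ratio without a pseudocount. NUS1, a subunit of the enzyme that makes dolichol from the same prenyl precursors, stood at 14.1 FPKM in HT29_NC, 4.87 in HT29_si2, 11.6 in LIM1215_NC and 5.67 in LIM1215_si2, or 34.6% of the HT29 control, with a counting interval of 31.1% to 38.4%, and 49.0% of the LIM1215 control (43.97% to 54.5%). SOAT1, which esterifies cholesterol for storage, stood at 17.7, 8.12, 5.97 and 4.44 FPKM in the same order, 45.9% of control in HT29 (42.7% to 49.2%) and 74.5% in LIM1215 (66.7% to 83.2%). ACACB, the carboxylase at the mitochondrial surface, differed in opposite directions between the lines, with 4.61, 1.11, 1.66 and 3.52 FPKM, 24.1% of control in HT29 and 213% in LIM1215. That difference was not tested.

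The proteases that release the SREBP proteins differed in opposite directions. MBTPS1, the first of them, was higher in both lines, with 35.6 and 61.8 FPKM in HT29 and 23.6 and 45.1 in LIM1215, 174% (166% to 181%) and 191% (180.5% to 202%) of control. MBTPS2, which cuts after it, was at 58.3% (51.8% to 65.5%) and 75.4% (66.6% to 85.3%). The median log2 ratio of the 8 genes of SREBP processing was −0.08 in HT29 and −0.05 in LIM1215. The liver X receptor gene NR1H2 was higher in both lines, at 167% (155% to 179.9%) and 168% (156% to 182%), while NR1H3 was at 102% and 117%. The 4 genes listed for the liver X receptors and their targets had medians of 0.27 and 0.25, where all genes had 0.04 and 0.02; in HT29 NR1H3 and LPCAT3 were at 0.03, with counting intervals that included no difference. Medians over the 11 genes of the non-sterol branches were 0.02 and −0.08, over the 16 of sterol trafficking 0.03 and 0.05, and over the 17 of fatty acid supply and elongation −0.17 and −0.14.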
